A study of Sus scrofa domesticus with 4 samples.

Results

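The genes described here encode the proteins of the cytosolic ribosome, grouped by subunit. They were taken as the array probes whose RefSeq mRNA belongs to a pig gene with an RPL, RPS, RPLP or RPSA symbol, leaving out the RPS6K kinases and pseudogenes. This gave 187 probes of 43603 on the array. The probes stand for 37 genes, 21 of the large subunit with 113 probes and 16 of the small subunit with 74 probes. The pig gene table holds 51 large-subunit and 33 small-subunit symbols of this pattern, so 30 and 17 of them were not analysed here. All 37 genes could be tested, and 1 RPSA probe, with unmarked spots on too few arrays, was left out. The 37 include 3 paralogue symbols that are not standard subunits, RPL7L1, RPL26L1 and RPL36AL.

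The samples were slices of uterine muscle layer (myometrium), cut 3 mm thick from the middle of the uterine horns of 4 Large White x Polish Landrace gilts. The gilts were 7 to 8 months old, weighed 120 to 130 kg and had been pregnant for 15 to 16 days, when pig embryos implant. After 2 h of preincubation the slices were kept in culture for 24 h, either in 10 nM orexin B, a neuropeptide that binds the orexin receptors, or untreated, with duplicate cultures in 4 experiments. RNA of treated and untreated slices was labelled with different dyes and hybridised together on each of 4 two-colour Agilent arrays, so each array gives a ratio of orexin B over untreated. The treated RNA was in Cy5 on arrays 1 and 3 and in Cy3 on the other two.

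The cytosolic ribosome is built from a small subunit, which reads the mRNA, and a large subunit, which joins the amino acids. Each subunit is ribosomal RNA with a set of small, mostly basic proteins that are nearly all needed in equal numbers. Most of their mRNAs share a terminal oligopyrimidine (TOP) tract at the start of the transcript, through which the mTOR pathway controls their translation together, a step that mRNA levels do not show.

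In these data the mean ratios of the ribosomal protein mRNAs, orexin B over untreated, were small with loess within arrays. With 4 arrays that differed from each other, this does not show that the levels were equal. The median log2 ratio of the 37 genes was -0.06, with single genes between -0.48 (RPL13A) and 0.17 (RPS12). The mean was below 0 for 25 genes and above 0 for 12. Directions follow the dye fields of each array, and the deposited series table turns arrays 2 and 4 in the same way. The labelling protocol names the first orientation alone, and with arrays 2 and 4 unturned the median was 0.12 with 11 genes below 0. Over all 1979 named genes tested the median was 0.02, and 46% had a mean below 0, against 67.6% of the ribosomal protein genes. In bulk tissue, fewer cells of a type and less RNA per cell cannot be told apart.

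After Benjamini-Hochberg adjustment over all named genes, 0 of 37 ribosomal protein genes were under 0.05 by limma's moderated test (adjusted p from 0.556 to 0.993). Among all named genes none passed either (0%, smallest adjusted p = 0.458 in limma). At an unadjusted p under 0.05 there was 1 ribosomal protein gene, RPL13A, against 8.44% of all named genes. Of the 186 ribosomal protein probes, 0 passed the adjusted threshold in limma (smallest adjusted p = 0.600) and 3 were at an unadjusted p under 0.05, both RPL13A probes and 1 of RPL5, against 7.72% of all 19881 probes tested. All 3 were lower. Of all probes tested, 3.41% were at that threshold and lower. In the unmoderated test on the same ratios, 0 ribosomal protein genes were at an unadjusted p under 0.05. Of all 19881 probes tested, a different unit from genes, 1195 were at that threshold in the unmoderated test. The share of all named genes in that test is not given. These p-values measure the spread between the 4 arrays, and with only 4 of them the precision is limited. The standard error per gene had a median of 0.13 and ran from 0.11 to 0.23, and for 30 of 37 genes the 95% confidence interval of the log2 ratio lay within 0.5 of 0 on either side.

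The arrays differed from each other more than the mean differed from 0. The median over the 37 genes was -0.10 on array 1, -0.36 on array 2, 0.13 on array 3 and -0.04 on array 4. The ratio was below 0 for 24, 31, 6 and 24 genes on arrays 1 to 4. Array 2 held the lowest ratio of 24 genes and array 3 the highest of 25. Over all named genes the medians on the same arrays were 0.06, -0.12, 0.06 and 0.05. With median centring of each array in place of loess, the median of the 37 genes was -0.21 and 35 of them had a mean below 0, against 54.3% of all named genes.

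**Figure D1:**
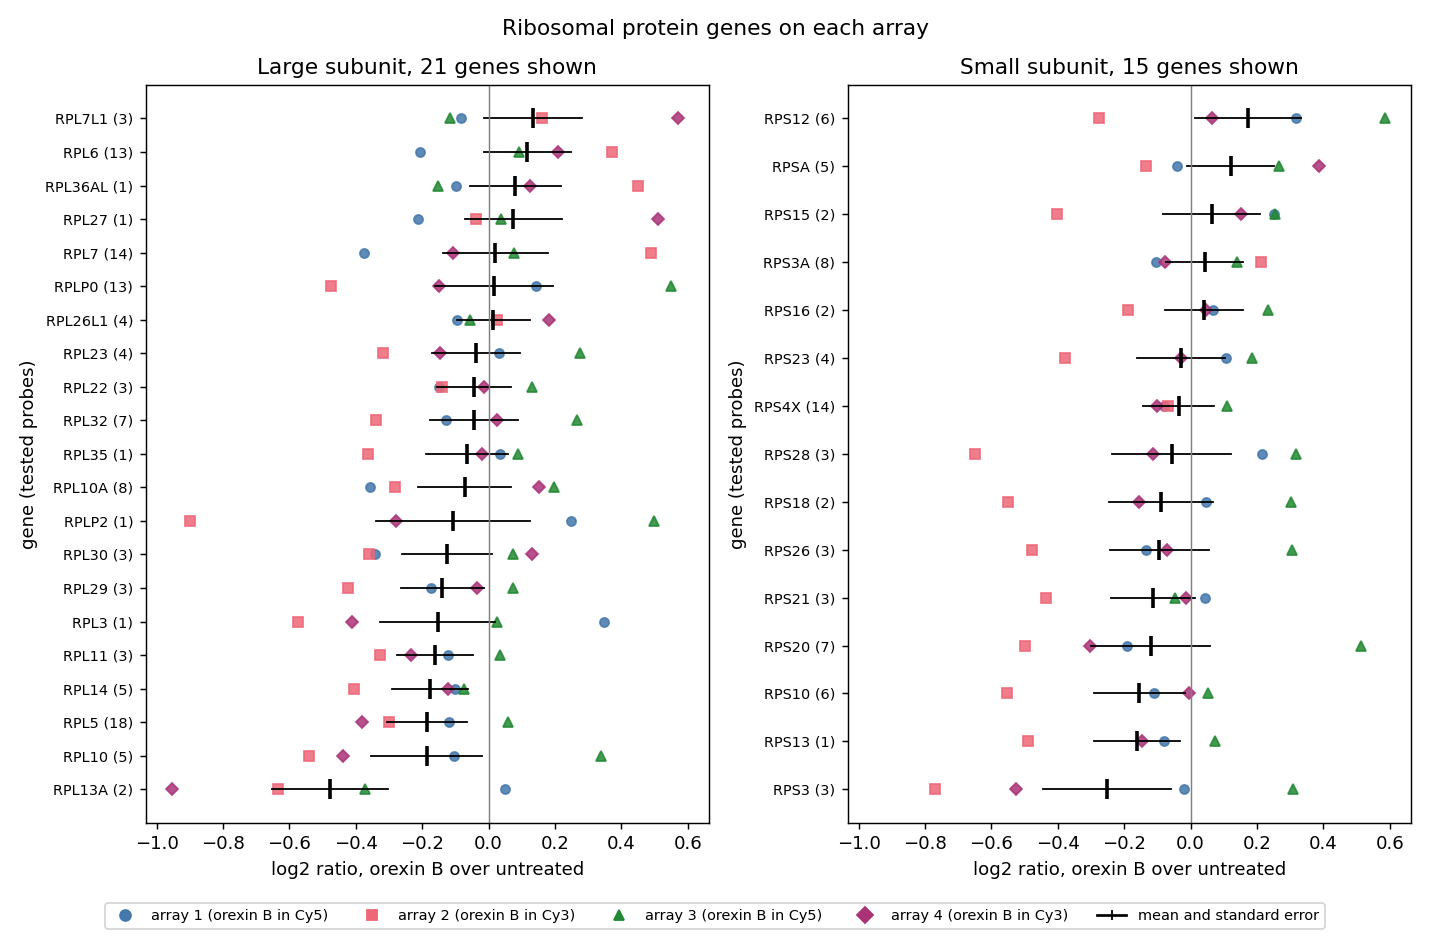
Log2 ratio of orexin B over untreated (horizontal axis) for the ribosomal protein genes (vertical axis, with the number of tested probes; 1 gene is not shown); coloured symbols are the 4 arrays, and the black mark and bar are the mean and its moderated standard error. Array 2 lies lowest for 24 genes and array 3 highest for most; RPL13A, with a mean of -0.48, is the lowest of the family.

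The large and small subunits were compared next, since their proteins are used in nearly equal numbers. The large-subunit genes had a median of -0.07, with 14 of 21 below 0, and the small-subunit genes had -0.05, with 11 of 16 below 0. On arrays 1 to 4 the large-subunit median was -0.10, -0.33, 0.07 and -0.04. The small-subunit median was -0.03, -0.42, 0.25 and -0.05. Both subunits were therefore lowest on array 2 and highest on array 3, and the small subunit moved over the wider range. The difference, large minus small, was -0.07, 0.09, -0.18 and 0.01 on arrays 1 to 4, with a mean of -0.04 ± 0.12 (SD, n = 4). It changed sign between arrays and was smaller than its spread. Without the 3 paralogue symbols the large-subunit median was -0.09. Leaving out array 3 turned the mean difference to 0.01, and leaving out array 2 brought the median of all 37 genes to -0.0026, with 19 below 0.

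**Figure D2:**
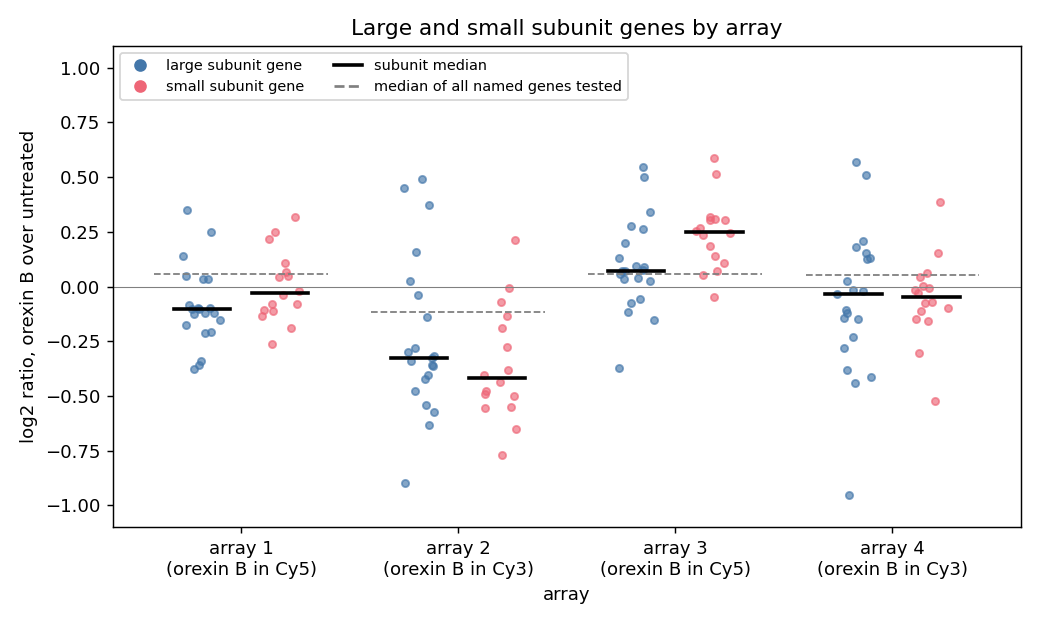
Log2 ratio of orexin B over untreated (vertical axis) for each large-subunit (blue) and small-subunit (red) gene on each array; black bars are subunit medians and dashed lines the median of all named genes tested. The bars of both subunits are lowest on array 2 (-0.33 and -0.42) and highest on array 3 (0.07 and 0.25).

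Among the large-subunit proteins, those of the stalk recruit the elongation factors to the ribosome. RPLP0, the base of the stalk, had log2 ratios of 0.14, -0.48, 0.55 and -0.15 on arrays 1 to 4. Its mean was 0.02 ± 0.18 (moderated SE, n = 4, limma adjusted p = 0.986). RPLP2, one of the acidic proteins that RPLP0 carries, had 0.25, -0.90, 0.50 and -0.28, with a mean of -0.11 ± 0.23 (limma adjusted p = 0.931). Both stalk genes were above 0 on arrays 1 and 3 and below 0 on arrays 2 and 4. RPLP2, measured by a single probe, had the largest standard error of the family.

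RPL5 and RPL11 enter the large subunit together with the 5S ribosomal RNA, and when free they bind the ubiquitin ligase MDM2. RPL5 had -0.12, -0.30, 0.06 and -0.38 on arrays 1 to 4, with a mean of -0.19 ± 0.12 (limma adjusted p = 0.730). RPL11 had -0.12, -0.33, 0.03 and -0.23, with a mean of -0.16 ± 0.11 (limma adjusted p = 0.741). The partners were close on each array, both just above 0 on array 3 and below it on the others. MDM2 itself had a mean of 0.22 ± 0.12.

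RPL13A was the member farthest from 0. It is a large-subunit protein that can leave the ribosome in interferon-treated monocytes and then represses selected mRNAs. Its log2 ratios were 0.05, -0.64, -0.37 and -0.96 on arrays 1 to 4. Treated slices were thus lower on arrays 2, 3 and 4 and near equal on array 1. The processed signal of 1 of its probes was 15622, 18642, 13455 and 12973 with orexin B, and 15447, 29788, 16710 and 26601 untreated. The untreated signals of arrays 2 and 4 were thus the highest of these 8 signals, both in Cy5. The second probe gave nearly the same ratios, 0.06, -0.66, -0.36 and -0.92.

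The mean for RPL13A was -0.48 ± 0.18, a level 1.39-fold lower with orexin B (95% confidence interval -0.90 to -0.06 on the log2 scale). Its unadjusted p was 0.031 and its adjusted p 0.556 in limma over all named genes, and 3.08% of named genes were lower at that unadjusted threshold. With a dye term in the fit it was -0.48 ± 0.13 (limma adjusted p = 0.214), where 13.1% of named genes were at an unadjusted p under 0.05 and 0% passed the adjusted threshold. Leaving out arrays 1 and 4 in turn gave -0.65 and -0.32, and RPL13A was no longer at an unadjusted p under 0.05 without array 2, 3 or 4.

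RPL14, a protein of the solvent side of the large subunit, was the one gene of the family below 0 on all 4 arrays, with -0.10, -0.41, -0.07 and -0.12. Its mean was -0.18 ± 0.11 (limma adjusted p = 0.730). Of all named genes, 6.57% were below 0 on all 4 arrays, and 9.7% were above 0 on all 4, where the family had no member. Of the other genes, 13 were below 0 on 3 arrays, 4 were above 0 on 3 and 19 were split evenly. By probe, 9 of 186 were below 0 on all 4 arrays and 2 above, against 7.08% and 8.92% of all probes tested.

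RPL10, which is added late in assembly and sits near the catalytic centre, had -0.10, -0.54, 0.34 and -0.44, with a mean of -0.19 ± 0.17 (limma adjusted p = 0.835). RPL29 had -0.17, -0.42, 0.07 and -0.04, with a mean of -0.14 ± 0.12 (limma adjusted p = 0.830). Both were lowest on array 2 and above 0 on array 3 alone. RPL35, at the rim of the tunnel through which the new protein leaves, had a mean of -0.07 ± 0.12. RPL3, a protein that reaches toward the catalytic centre, had -0.15 ± 0.17, and RPL30 had -0.13 ± 0.13. RPL22, RPL32, RPL23 and RPL10A had means of -0.04, -0.04, -0.04 and -0.07, and RPL27 had 0.07.

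The large-subunit genes RPL6 and RPL7 did not share the low values of array 2. RPL6 had -0.21, 0.37, 0.09 and 0.21 on arrays 1 to 4, with a mean of 0.12 ± 0.13 (limma adjusted p = 0.860). RPL7 had -0.38, 0.49, 0.08 and -0.11, with a mean of 0.02 ± 0.16 (limma adjusted p = 0.980). Both were highest on the array where most of the family was lowest. The others above 0 on array 2 were RPS3A and all 3 paralogue symbols.

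Among the paralogues, RPL7L1, a relative of RPL7 that acts in ribosome assembly, had -0.08, 0.16, -0.12 and 0.57. Its mean of 0.13 ± 0.15 was the highest of the large-subunit genes (limma adjusted p = 0.858). RPL36AL had -0.10, 0.45, -0.15 and 0.13, with a mean of 0.08 ± 0.14. RPL26L1 had -0.10, 0.03, -0.06 and 0.18, with a mean of 0.01 ± 0.11. All 3 were below 0 on arrays 1 and 3 and above 0 on arrays 2 and 4, the reverse of the stalk genes. Their probes did not all share this pattern. The RPL26L1 probes split 2 above and 2 below 0 on each of arrays 2 and 3. For RPL7L1, 1 probe was above 0 and 2 were below it on each of arrays 1 and 3. RPL36AL was measured by 1 probe.

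In the small subunit, RPS3 was lowest. It lies at the entry of the mRNA channel in the head of the subunit and also acts in DNA repair. Its log2 ratios were -0.02, -0.77, 0.31 and -0.53, with a mean of -0.25 ± 0.19 (limma adjusted p = 0.763). It was far below 0 on arrays 2 and 4, near 0 on array 1 and above 0 on array 3. RPS10, another head protein, had -0.11, -0.55, 0.05 and -0.01, with a mean of -0.15 ± 0.14 (limma adjusted p = 0.830). RPS12, in the beak of the head, was the highest gene of the family, with 0.32, -0.28, 0.59 and 0.06 and a mean of 0.17 ± 0.16 (limma adjusted p = 0.840).

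RPS20, a head protein, had -0.19, -0.50, 0.51 and -0.30, with a mean of -0.12 ± 0.18. RPS15, whose tail reaches the decoding site, had 0.25, -0.40, 0.25 and 0.15, so 3 arrays lay close together above 0 and array 2 apart below it. The head genes RPS28, RPS18 and RPS16 had means of -0.06, -0.09 and 0.04. All 9 head genes were below 0 on array 2 and above 0 on array 3, with medians of 0.05, -0.50, 0.30 and -0.01 on arrays 1 to 4.

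The 7 body genes had medians of -0.08, -0.38, 0.14 and -0.07 on the same arrays. RPS13 had -0.08, -0.49, 0.07 and -0.15, with a mean of -0.16 ± 0.13 (limma adjusted p = 0.779). RPS21 had 0.04, -0.44, -0.05 and -0.01, with a mean of -0.11 ± 0.13 (limma adjusted p = 0.858). Both were lowest on array 2, and RPS21 was the one small-subunit gene below 0 on array 3. RPSA, the ribosomal protein also known as the laminin receptor, had -0.04, -0.13, 0.27 and 0.39, with a mean of 0.12 ± 0.13 (limma adjusted p = 0.853).

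RPS3A, which lies near the mRNA exit, had -0.11, 0.21, 0.14 and -0.08, with a mean of 0.04 ± 0.11. RPS4X, encoded on the X chromosome, had -0.08, -0.07, 0.11 and -0.10. Its mean of -0.04 ± 0.11 came with the smallest standard error of the family. RPS23, a protein of the decoding centre, had a mean of -0.03 ± 0.13, and RPS26, at the mRNA exit channel, had -0.09 ± 0.15.

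Several members were measured by many probes, which shows how far a gene's value on an array holds across its probes. RPL5 had 18 probes, and all 18 were below 0 on arrays 2 and 4. All 14 RPL7 probes were above 0 on array 2, between 0.38 and 0.60, and 13 of 14 were below 0 on array 4. All 13 RPLP0 probes were below 0 on array 2 and above 0 on array 3. All 7 RPS20 probes had the same pattern as RPLP0 on those arrays, and all 8 RPS3A probes were above 0 on array 2. The high and low values of these genes were thus shared by their probes, which come from the same labelled RNA and are not replicates of the treatment.

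The probes of a gene did not always share a sign. Of 31 genes with at least 2 tested probes, 18 had all probe means on one side of 0 and 13 did not. Among the 13 were RPL6, RPL7, RPL10A, RPL14, RPL23, RPL26L1, RPL32 and RPLP0 in the large subunit, and RPS3A, RPS4X, RPS23 and RPSA in the small. For RPL6, 12 of 13 probes were above 0 on each of arrays 2, 3 and 4, and its probe of highest intensity had a mean of -0.17. For RPS4X, 14 probes had means from -0.23 to 0.24. Ribosomal protein genes have many near-identical processed copies in mammalian genomes, and cross-hybridisation of such copies to a probe was not tested.

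The median SD between probes of a gene was 0.21, 0.13, 0.14 and 0.14 on arrays 1 to 4 in the family, and 0.18, 0.15, 0.14 and 0.11 over all named genes. The SD between genes was 0.18, 0.32, 0.20 and 0.28 in the family, and 0.29, 0.49, 0.36 and 0.46 over all named genes. On array 1 the probes of a ribosomal protein gene therefore differed as much as the genes did, and on array 2 the genes differed more than their probes.

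**Figure D3:**
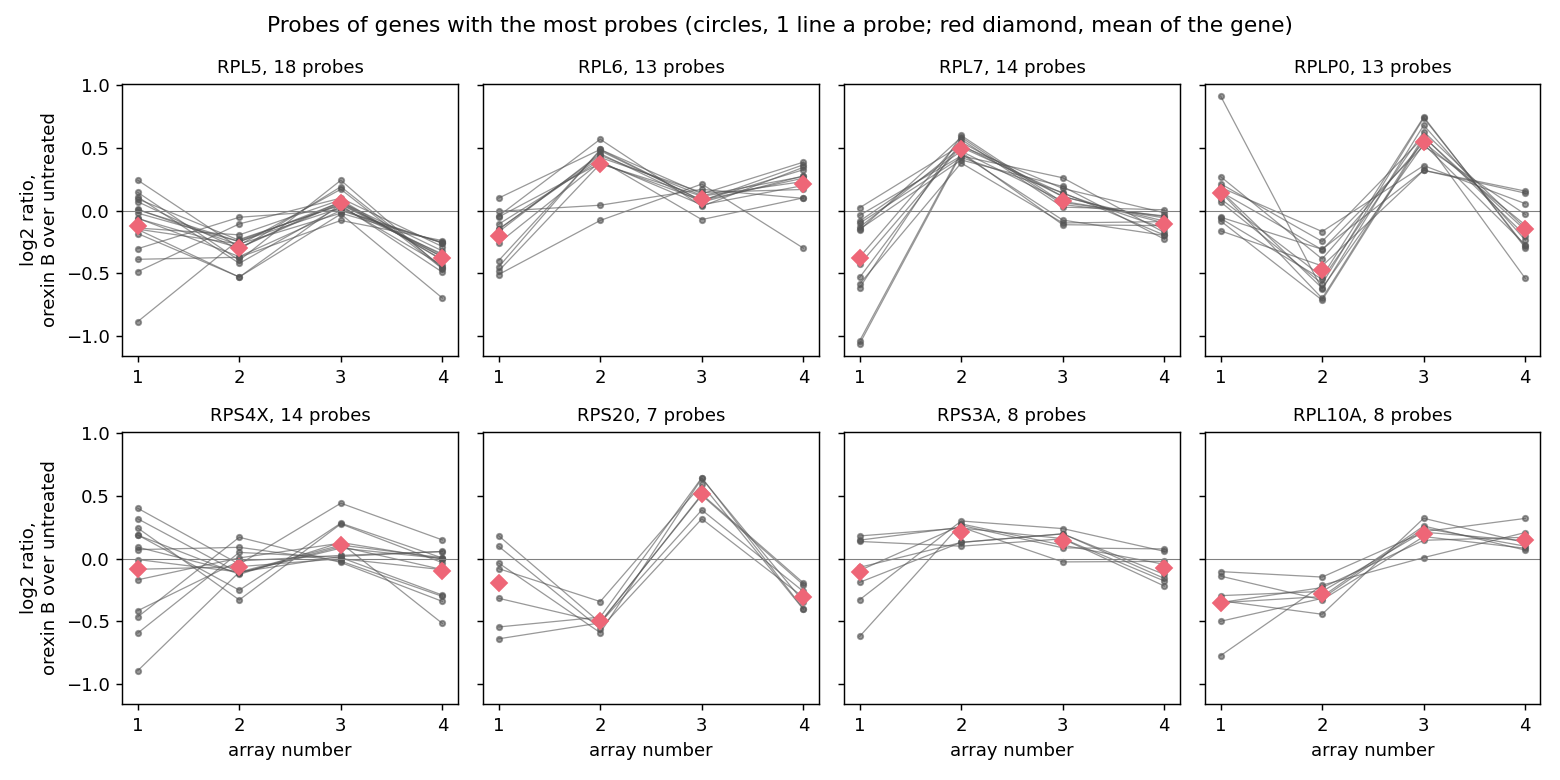
Log2 ratio of orexin B over untreated (vertical axis) of every tested probe on arrays 1 to 4 (horizontal axis, no order) for 8 genes with many probes; each thin line is a probe and the red diamond the gene's mean over probes. The 14 RPL7 probes lie close together above 0 on array 2 while the 13 RPLP0 probes lie below it, and the probes of a gene are widest apart on array 1.

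For many members the ratio differed with the dye orientation of the arrays. The mean of arrays 1 and 3, with orexin B in Cy5, was above that of arrays 2 and 4 for 26 of 37 genes (70.3%, with 13 of 21 large-subunit and 13 of 16 small-subunit genes), against 58.0% of all named genes measured in both orientations. The median difference between orientations was 0.24 in the family, 0.18 in the large and 0.33 in the small subunit, and 0.08 over all named genes. It was largest for RPLP2 at 0.96 and RPS3 at 0.79, and lowest for RPL7L1 at -0.46, RPL36AL at -0.41, RPL6 at -0.35 and RPL7 at -0.34. With 2 arrays in each orientation, a dye effect cancels in the mean but widens the standard error. The labels do not tie each array to a gilt, and the 4 arrays are taken as the 4 experiments. The dye and the tissue behind each orientation cannot be told apart.

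Across the 37 genes, the ratios of arrays 2 and 4 had a Pearson correlation of 0.56 and those of arrays 1 and 3 one of 0.29. Between orientations it was -0.48 for arrays 1 and 2, -0.34 for arrays 2 and 3, -0.24 for arrays 1 and 4 and -0.01 for arrays 3 and 4. Over all named genes the same 6 pairs had 0.43, 0.08, 0.10, -0.15, 0.20 and -0.06. These describe points that share their array, and genes are not independent replicates. Arrays 2, 3 and 4 also share a slide and a scan day, and array 1 has its own.

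**Figure D4:**
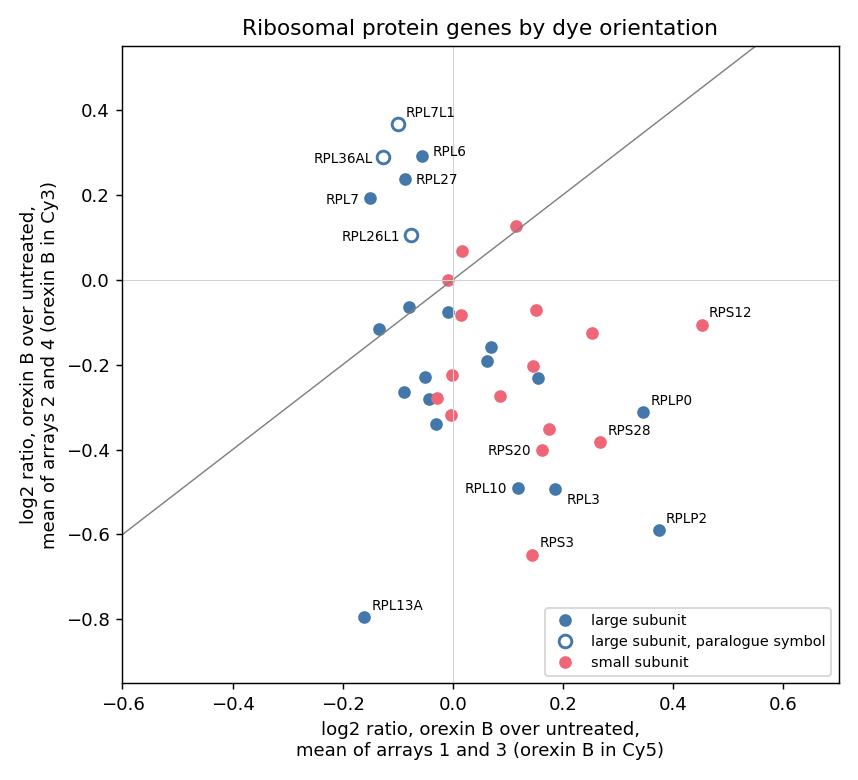
Mean log2 ratio of orexin B over untreated of arrays 1 and 3 (horizontal axis, orexin B in Cy5) against that of arrays 2 and 4 (vertical axis, orexin B in Cy3); each point is a ribosomal protein gene, open circles are paralogue symbols and the diagonal marks equal values. Below the diagonal lie 26 of 37 genes, with RPLP2 and RPS3 farthest from it, while the 3 paralogue symbols, RPL6, RPL7 and RPL27 lie above it.

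Cell markers moved between the arrays as well. All 8 of the 12 listed smooth muscle markers that could be tested, ACTA2, CNN1 and DES among them, were well above background on all 4 arrays in both channels, as the labelled tissue should hold them. Their median log2 ratio was 0.11, -1.12, 0.24 and -1.05 on arrays 1 to 4, low on both arrays with orexin B in Cy3. On those arrays, 2 and 4, the median of the 37 ribosomal protein genes was -0.36 and -0.04, against -0.10 on array 1. The 4 of 7 fibroblast and stroma markers tested had 0.03, -0.64, 0.04 and -0.66. The 7 of 9 macrophage markers tested had 0.61, 0.19, 0.88 and 0.78, with 6 of them higher at an unadjusted p under 0.05, against 5.36% of all named genes, and 0 past the adjusted threshold in limma. C1QC, 1 of the 6, exceeded background clearly in treated RNA on 4 arrays and in untreated RNA on 3, so it entered the test only through the group where it is high. The 2 of 6 epithelial markers tested had 0.28, -0.48, -2.0 and 0.82. The part of these cell types in the ribosomal protein values was not tested.

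Other components of the translation machinery were read from lists chosen by function or by symbol. In limma, 0 of their genes passed an adjusted p of 0.05. Outside the symbol pattern, RACK1, a scaffold on the head of the small subunit, had a mean of -0.07 ± 0.14. Of other TOP mRNAs, 3 of 15 listed were tested and all had a mean below 0, as had 46% of all named genes. TPT1 had -0.30 ± 0.18, EEF1A1, which brings aminoacyl-tRNA to the ribosome, -0.27 ± 0.18 and HNRNPA1 -0.09 ± 0.11. On arrays 1 to 4 EEF1A1 had 0.14, -0.67, 0.10 and -0.64, low on both arrays with orexin B in Cy3. EEF1E1, listed beside EEF1A1 by its symbol alone, had -0.14 ± 0.17.

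Among 9 initiation genes, 5 had a mean above 0 and 4 below it, with a median of 0.01. EIF4EBP2, which holds back the cap-binding factor and is itself switched off by mTOR, had -0.31, -0.57, -0.30 and -0.48 on arrays 1 to 4. It was below 0 on every array, as were 6.57% of named genes. Its mean was -0.41 ± 0.11, with an unadjusted p of 0.0080 and an adjusted p of 0.534 in limma. EIF1B had -0.18 ± 0.12, and the helicases EIF4A1 and EIF4A3 had 0.14 ± 0.16 and 0.12 ± 0.12. Of the 15 genes listed for control of ribosomal protein production, AKT1 and MYC were also tested, with -0.07 ± 0.17 and -0.03 ± 0.13.

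Of 50 listed ribosome biogenesis genes, 8 were tested and 7 had a mean above 0, as had 1069 of all 1979 named genes. Their median was 0.16, with 0.01, 0.08, 0.09 and 0.36 on arrays 1 to 4. EIF6 is counted both here and among the initiation genes. DKC1, the pseudouridine synthase of ribosomal RNA, had 0.40, 0.25, 0.22 and 0.80. It was above 0 on every array, as were 9.7% of named genes. Its mean was 0.42 ± 0.14, with an adjusted p of 0.546 in limma. UTP3 had 0.26 ± 0.18, PES1, which acts in large-subunit maturation, 0.17 ± 0.12 and NIP7 0.15 ± 0.12. The 6 mitochondrial ribosomal proteins tested, of a separate ribosome, were split 3 above and 3 below 0, with a median of 0.0041. MRPL24 had -0.18 ± 0.13, MRPL52 0.14 ± 0.13, MRPL58 0.13 ± 0.16 and MRPL16 0.06 ± 0.11.

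**Figure D5:**
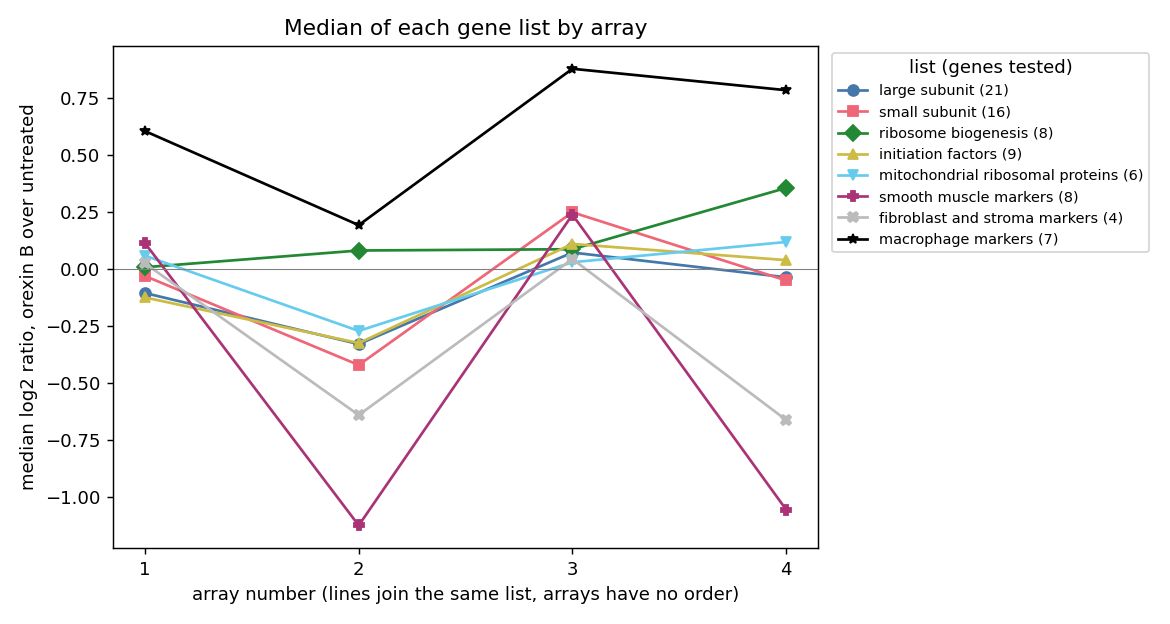
Median log2 ratio of orexin B over untreated (vertical axis) of each gene list on arrays 1 to 4 (horizontal axis, no order); lines join a list's values and the legend gives the genes tested. The large and small subunits and the initiation genes lie low on array 2, smooth muscle markers are low on arrays 2 and 4 (-1.12 and -1.05), and the macrophage median is above 0 on every array.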

How the data were processed

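Per the file headers, the deposited scanner files come from Agilent Feature Extraction 10.7.3.1 and give each spot's intensity in Cy3 and Cy5 and the log10 of red over green. The deposited series table holds log2 ratios. For probes with a single spot, 100% of that table's values matched the processed-signal ratio within 0.01 once arrays 2 and 4 were turned. Probes with several spots were not compared. The table's column medians were -0.27, -0.08, -0.20 and -0.09. Dye directions came from each array's label fields; the protocol text per the labels names one orientation only, so unturned ratios were run as an alternative chosen after seeing the data. The headers name no genome build, and neither coordinates nor sequences are given.

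Using limma 3.58.1 in R 4.3.3, median signals were corrected with normexp (offset 50) and loess within arrays, giving control spots weight 0. Spots marked as outliers (31 to 138 per array) were left out. A probe was tested if well above background on all 4 arrays in either RNA's channel and unmarked on at least 3. Probes well above background made up 48.7% to 54.3% in the treated and 37.6% to 58.2% in the untreated channel. RefSeq accessions matched the Sscrofa11.1 gene table for 6700 probes, and 36903 stayed unnamed. A gene's tested probes were averaged per array, and an intercept model was fitted by lmFit, then eBayes, with 3 residual and 3.69 (gene) or 4.10 (probe) prior degrees of freedom. Tests were two-sided, adjusted by Benjamini-Hochberg over all rows tested. The fit was tested on simulated data. Python 3.11.15 with matplotlib 3.10.9 drew the figures.

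Members and lists were chosen with earlier results of these data known, so no test was run over them. The text names, per subunit, the 6 genes of smallest p, the highest and lowest, paralogues, genes whose probes differ in sign, genes by role and the 4 genes of smallest p in each other list; the remaining members are named by their means, and a few genes that these rules name are not reported here. The lists for neutrophil (2 of 5 tested, median 0.32), T and NK cells (2 of 6, 0.21), blood endothelium (3 of 5, 0.18) and conceptus trophoblast (1 of 4, 0.34) are given here alone. Both T and NK cell genes (CD3G, NKG7) and S100A12 of the neutrophil list were tested only through the treated channel, where they are high, which favours a median above 0. Of 4 erythroid markers, 0 were tested. Alternatives covered background, source of values, normalization, filter, dye term, probe choice, test, slide and each array left out.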

Additional observations from a re-analysis of the deposited data

Results flagged for a closer look

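In 3 of 48 sets of 4 array values examined (the 37 genes and the medians of subunits and groups by role), 1 array stood apart from the other 3 by Dixon's criterion, where chance marks about 1 in 20 sets, or 2.4 of 48. For RPL14 it was array 2, at -0.41 on the log2 scale. For RPS15 it was also array 2, at -0.40. For RPS4X it was array 3, at 0.11. Array 2 was the lowest array for 24 of the 37 genes.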

How the results depend on the processing

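Adjusted calls stayed at 0 for probes and genes in limma under every alternative run (smallest adjusted p 0.196 and 0.088), also with each array left out (0.211 and 0.113). Probes at an unadjusted p under 0.05 numbered from 177 (median centring) to 2361 (dye term), 2302 without the filter and 727 without array 4. Ribosomal protein genes at that threshold numbered 0 with the processed ratio, the series table, median centring or the unmoderated test and 5 with unturned ratios. Of all 19881 probes tested, 1597 were at that threshold with the processed ratio or series table, 1195 in the unmoderated test and 1655 with unturned ratios. Shares of all named genes under these settings are not given. The median of the 37 genes ran from -0.15 to -0.0026 with an array left out and from -0.21 to 0.12 otherwise, the last with unturned ratios. Large minus small subunit ran from -0.08 to 0.01 with an array left out and from -0.09 to -0.02 otherwise. Across 16 settings with the dye labels kept, 13 of 37 genes had a mean below 0 in all, 1 (RPS12) above 0 in all and 23 had both signs. Several of these settings change only the test or filter, or repeat another setting's values. They leave the means the same and are not separate checks. The share of all named genes that kept a sign is not given. RPSA was -0.012 with median centring and -0.054 with its brightest probe. Cy5 over Cy3 unturned on every array was chosen after seeing the data. Among the 6 genes of smallest p per subunit, signs then turned for all but RPS12 (0.28). In the large subunit these were RPL13A (0.32), RPL14 (0.088), RPL5 (0.15), RPL11 (0.12), RPL29 (0.089) and RPL10 (0.30). In the small subunit they were RPS3 (0.40), RPS13 (0.16), RPS10 (0.13), RPS21 (0.11) and RPSA (-0.0067). Unturned signs of the remaining members are not listed. The small-subunit median was 0.17 with unturned ratios, and the cause of the other shifts was not tested. Each array sets treated against untreated RNA, so the test on the array ratios is already paired within arrays. The arrays form a single group, and no further pairing was possible. With 4 arrays, differences well above 1 standard error (0.11 to 0.23 per gene) can also go undetected. RPL13A, at -0.48 ± 0.18, had an adjusted p of 0.556 in limma.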
